A study of Mus musculus with 6 samples.

Results

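The genes of cholesterol and fatty acid synthesis, with the regulators of these pathways and the genes of sterol export, were followed in naive, IL-2 primed and IL-12 primed CD8+ T cells. The list held 34 genes chosen by their known function, and each was read from 1 probe set, that of highest mean where a gene had several. A probe set of their own was found for 32 of the 34, and all 32 passed the filter on low values, among 11147 genes tested in all. Acat2, an acetoacetyl-CoA forming enzyme, and Nr1h2, which encodes the sterol sensor LXR beta, were not analysed here. Each of 3 groups had 2 arrays, hybridised with total RNA of splenic CD8+ T cells. The donors in all 3 groups were female C57BL/6 mice carrying the Pmel-1 T cell receptor transgene, whose receptor recognises gp100, a melanocyte and melanoma protein. Naive cells were sorted fresh from the spleen for CD8 and Thy1.1 and received neither antigen nor cytokine. The IL-2 group was primed with gp100 for 4 days and stimulated with IL-2 for 6 days, and the IL-12 group differed from it in the cytokine, IL-12. The labels give no age and name no sort for the primed cells. They also leave unsaid whether replicate arrays stand for separate animals or cultures, so p-values may measure technical spread. Values are log2 RMA values, on which a difference of 1 is a doubling, and "passed the test" means a limma p-value under 0.05 after Benjamini-Hochberg adjustment over all tested genes.

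Cholesterol is built from acetyl-CoA through mevalonate, isoprenoids, squalene and lanosterol. Most of the enzymes are transcribed under SREBP-2, a membrane-bound transcription factor that SCAP escorts from the endoplasmic reticulum to the Golgi for activation when sterols are low, while INSIG proteins hold the complex back when sterols are high. Fatty acid synthesis and desaturation respond chiefly to SREBP-1 and to LXR. LXR receptors, activated by oxysterols, raise the exporters ABCA1 and ABCG1. T cells that enter division need new membrane, and activation of this programme with export turned down is a known feature of blasting T cells.

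Because many of the enzymes moved together, the 250 bases before the RefSeq transcription start (assembly GRCm38.p6) were searched for 4 short motifs on both strands. Such a window was given for 27 of the 34 genes, Sqle, Fdft1, Fdps, Fads1, Scd1, Scd2 and Abcg1 being the others. The pentamer CCAAT, bound by NF-Y, a usual partner of SREBP, was present in 20 of 27 genes (74.1%), against 3578 of 8950 tested genes with a window and 33.8% of all 32851 windows. The form TCACNCCAC of the sterol element was present in 1 of the 27 genes, Hmgcs1, against 1.23% of tested genes and 1.05% of all windows. The E-box CACGTG was present in 7 of 27 genes (25.9%; 895 of 8950 tested genes and 6.02% of all windows), and the GC box GGGCGG in 21 (77.8%; 63.4% and 32.7%). A gene with several windows was counted if any held the motif. No motif contains another, and a match of letters does not show that a factor binds. Shown are Hmgcs1, which held both the sterol element and CCAAT, Idi1 and Cyp51, with large rises among the sterol enzymes, and Fasn and Fads2, of which the first passed between the cytokines but not with IL-2 priming and the second at both steps. Sequences run 5′ to 3′ on the gene's strand, and capitals mark CCAAT, read on either strand, and the sterol element.
Hmgcs1, chr13:119690101-119690350, plus strand: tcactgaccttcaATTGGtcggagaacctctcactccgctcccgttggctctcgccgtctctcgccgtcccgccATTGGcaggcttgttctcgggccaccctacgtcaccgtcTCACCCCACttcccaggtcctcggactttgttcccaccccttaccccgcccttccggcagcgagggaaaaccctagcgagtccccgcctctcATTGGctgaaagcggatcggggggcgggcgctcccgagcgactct
Idi1, chr13:8885356-8885605, plus strand: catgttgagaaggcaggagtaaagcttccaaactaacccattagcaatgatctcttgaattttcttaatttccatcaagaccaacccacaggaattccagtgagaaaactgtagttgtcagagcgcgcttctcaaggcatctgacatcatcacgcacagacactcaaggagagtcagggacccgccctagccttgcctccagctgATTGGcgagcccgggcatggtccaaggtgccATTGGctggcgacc
Cyp51, chr5:4104698-4104947, minus strand: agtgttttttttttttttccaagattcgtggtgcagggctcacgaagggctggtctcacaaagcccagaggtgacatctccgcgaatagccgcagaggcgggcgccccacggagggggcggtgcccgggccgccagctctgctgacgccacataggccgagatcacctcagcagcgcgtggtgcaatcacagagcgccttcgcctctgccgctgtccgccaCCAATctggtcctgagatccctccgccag
Fasn, chr11:120824548-120824797, minus strand: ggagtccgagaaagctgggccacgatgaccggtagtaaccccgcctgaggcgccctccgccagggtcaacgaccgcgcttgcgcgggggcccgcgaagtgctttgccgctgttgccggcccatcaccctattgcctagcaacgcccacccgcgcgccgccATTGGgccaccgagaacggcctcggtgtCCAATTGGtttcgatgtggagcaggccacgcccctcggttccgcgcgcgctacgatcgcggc
Fads2, chr19:10101504-10101753, minus strand: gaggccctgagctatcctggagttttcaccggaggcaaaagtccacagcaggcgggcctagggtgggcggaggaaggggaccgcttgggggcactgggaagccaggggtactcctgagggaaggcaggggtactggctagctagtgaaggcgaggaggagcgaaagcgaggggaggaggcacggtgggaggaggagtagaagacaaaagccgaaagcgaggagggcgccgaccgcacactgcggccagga
Hmgcs1 held 3 CCAAT pentamers and the sterol element, Idi1 held 2 pentamers, Cyp51 held 1, and Fasn held 3, of which 2 share bases on opposite strands. Fads2 had the largest measured rise against naive cells in the list, from naive values below the value used in the filter on low values. It held neither marked motif in this window and 1 GC box.

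The 2 arrays of a group correlated at 0.99 in each group across the tested genes, which are not independent replicates. The 9 tested genes of CD8 T cell identity had a mean log2 value between 11.85 and 12.28 on every array. From IL-2 to IL-12 cells 5 of the 9 fell (11.0% of all tested genes). The mean levels of B cell and myeloid marker lists were highest in the naive arrays. The mean log2 value of 9 B cell genes was 8.76 to 8.83 in naive, 6.58 to 6.61 in IL-2 and 7.62 to 7.66 in IL-12 cells, and that of 9 myeloid genes was 8.32 to 8.64, 6.20 to 6.33 and 6.54 to 6.57. Among the myeloid genes Itgam went the other way and rose in IL-12 against naive cells (1.20 on the log2 scale, limma adjusted p = 6.28e-05). Its naive and IL-2 values lay below 6.83, the value used in the filter on low values. Itgam passed that filter through the IL-12 arrays alone, so its rise was in part fixed by the filter. The B cell genes Blk, Cr2 and Ebf1 and 6 of the 9 myeloid genes passed it through the naive arrays alone. Their falls against naive cells, which enter the list means, were in part fixed by the filter too. The 9 tested genes of cell division rose in both IL-2 and IL-12 against naive cells (25.8% and 31.2% of all tested genes). Their mean values were 8.20 to 8.60 in naive, 11.67 to 11.76 in IL-2 and 11.94 to 12.01 in IL-12 cells. Among them Bub1 read 5.62 and 6.09 in naive cells and passed the filter through the primed arrays alone. Its rise was thus in part fixed by the filter. In such bulk samples a change in the share of a cell type and a change in RNA per cell cannot be told apart.

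From naive to IL-2 primed cells, 23 of the 32 genes rose, 2 fell and 7 did not pass the test. Of all tested genes 25.8% rose and 19.9% fell. The rises took in 16 of 17 enzymes of the mevalonate and sterol steps, 2 of 4 genes of the SREBP system and 5 of 9 genes of fatty acid synthesis, while both exporters fell. The median log2 fold change of the 32 genes was 0.97, against 0.01 over all tested genes. Against the same naive arrays, in IL-12 primed cells, 28 genes rose and 2 fell (31.2% and 26.7% of all tested genes), with a median of 1.56. Cell division genes moved with these changes, 9 of 9 rising in either comparison, Bub1 among them from naive values below the filter value. Their median log2 fold changes were 4.20 (IL-2) and 4.32 (IL-12), and their part in the rise of the lipid genes was not tested.

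Setting the cytokines against each other at matched antigen and time, 18 of the 32 genes rose in IL-12 over IL-2 primed cells, 1 fell and 13 did not pass the test. Over all tested genes 9.82% rose and 11.0% fell. The share of all calls that were higher in IL-12 cells, 47.2%, was 34.3% after median centring of the arrays and 52.9% after quantile normalization. The rises were those of 12 of 17 mevalonate and sterol enzymes and 6 of 9 fatty acid genes. None of the 4 genes of the SREBP system passed, and the fall was that of the exporter gene Abcg1. The median log2 fold change of the 32 genes was 0.66, against 0.02 over all tested genes. Of the 9 cell division genes 2 rose (median log2 fold change 0.26). The B cell markers rose with IL-12, 8 of 9, and 2 of 9 myeloid markers rose. The rises of Ms4a1, Cd22, Pax5, Blk, Fcrla and Ebf1 started from IL-2 means below the filter value of 6.83. Both myeloid rises, of Itgam and Mpeg1, also did. Blk, Ebf1 and Mpeg1 had means below that value in IL-12 cells too, so these rises may lie within background. Cd79a and Cd79b rose from IL-2 means above it (7.03 and 8.93). The part of B cells and myeloid cells in the lipid gene differences was not tested.

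**Figure D1:**
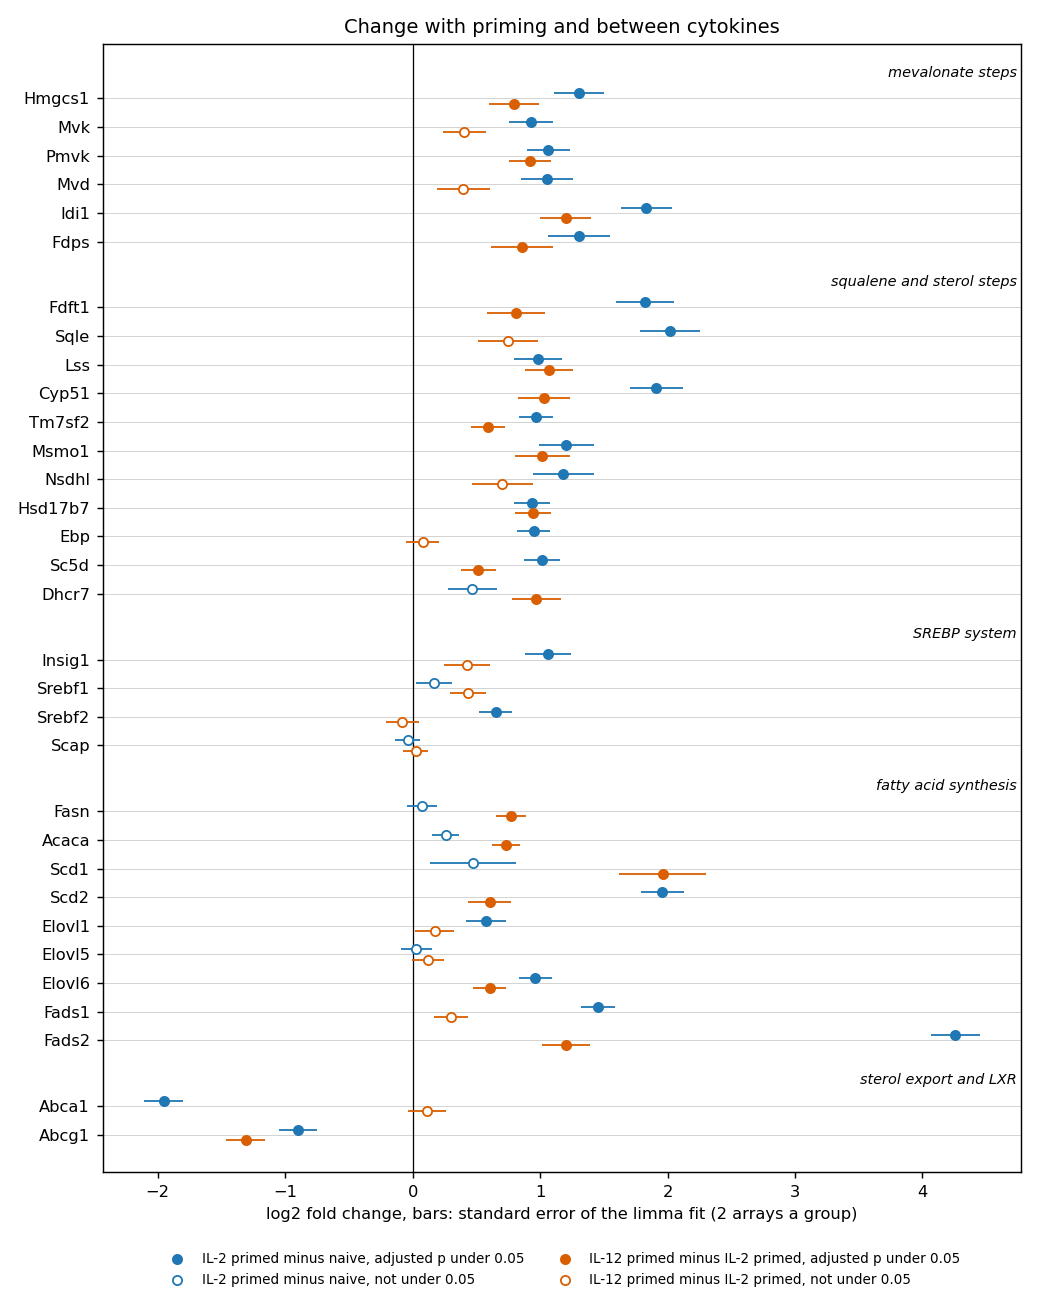
Log2 fold change of each of 32 genes (rows, by role) for IL-2 primed minus naive cells (blue) and IL-12 primed minus IL-2 primed cells (orange), 2 arrays a group, with bars for the limma standard error and filled points where the adjusted p was under 0.05. Fads2 had the largest measured difference in the blue comparison (4.26, with naive values below the filter value of 6.83) and Scd1 in the orange (1.96), and Abca1 and Abcg1 lay below 0 in the blue comparison.

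The mevalonate enzymes stood lowest in naive cells, higher in IL-2 cells and highest in IL-12 cells. Hmgcs1 (probe set 10412466), which makes HMG-CoA, read 9.35 and 9.77 in naive, 11.04 and 10.69 in IL-2 and 11.88 and 11.45 in IL-12 cells. No array of 1 group reached into the range of the next. Its log2 fold change was 1.31 ± 0.19 (SE, n = 2 arrays per group) for IL-2 against naive (limma adjusted p = 0.000756) and 0.80 ± 0.19 for IL-12 against IL-2 (limma adjusted p = 0.0211). Idi1 (probe set 10403413), the isopentenyl diphosphate isomerase, read 7.94 and 8.54 in naive, 10.28 and 9.87 in IL-2 and 11.30 and 11.26 in IL-12 cells. Its rise was 3.56-fold with IL-2 priming and a further 2.30-fold from IL-2 to IL-12 cells (log2 fold change 1.20 ± 0.20, limma adjusted p = 0.00412). Its second probe set gave 1.81 and 1.20 for the same log2 fold changes. Pmvk, the phosphomevalonate kinase, rose by 1.07 ± 0.17 with IL-2 priming and by 0.92 ± 0.17 from IL-2 to IL-12 on the log2 scale. Fdps, which makes farnesyl diphosphate, rose by 1.31 ± 0.24 and 0.86 ± 0.24 in the same comparisons. Mvk and Mvd, mevalonate kinase and the diphosphomevalonate decarboxylase, rose with IL-2 priming (0.93 ± 0.17 and 1.05 ± 0.21). Between the cytokines they did not pass the test: Mvk had a log2 fold change of 0.41 with a 95% interval of 0.02 to 0.80, and Mvd one of 0.40 with an interval of -0.07 to 0.87. All 6 rose in IL-12 against naive cells (31.2% of all tested genes), from 2.53-fold for Mvk to 8.19-fold for Idi1.

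Among the 11 enzymes that turn farnesyl diphosphate into cholesterol, 10 had 3 groups in the order naive, IL-2, IL-12 with no overlap of neighbours. Of all tested genes 17.0% held this order. Squalene epoxidase, Sqle (probe set 10424349), the oxygen-requiring step to squalene epoxide, read 7.89 and 8.59 in naive, 10.49 and 10.03 in IL-2 and 11.16 and 10.87 in IL-12 cells. It had the largest rise with IL-2 priming among the sterol enzymes (4.06-fold), and its further difference of 0.75 ± 0.23 in IL-12 cells fell short of the threshold (limma adjusted p = 0.0526). That difference passed with the compared groups alone (limma adjusted p = 0.0154), which is the same fit as leaving out either naive array. It also passed with a robust eBayes fit with a trend (0.0472) and with a replicate block (0.049). It did not pass with quantile normalization (0.0837) or median centring (0.0584). With 1 array left out the difference ran from 0.52 to 0.98. Cyp51 (probe set 10527920), the lanosterol demethylase, read 7.31 and 8.02 in naive, 9.71 and 9.45 in IL-2 and 10.65 and 10.57 in IL-12 cells. Both steps passed, with log2 fold changes of 1.91 ± 0.21 and 1.03 ± 0.21. Fdft1, squalene synthase, rose by 1.82 ± 0.23 and then by 0.81 ± 0.23, and its second probe set gave log2 fold changes of 2.04 and 0.90. Lss, which closes the sterol rings, rose by 0.98 ± 0.19 and then by 1.07 ± 0.19. Hsd17b7, a sterol ketoreductase, rose by 0.94 ± 0.14 in each of the 2 comparisons. Msmo1, the sterol C4 methyl oxidase, rose by 1.21 ± 0.21 and 1.02 ± 0.21. Tm7sf2, a sterol reductase, and Sc5d, a sterol desaturase, rose by 0.97 ± 0.14 and 1.02 ± 0.14 with IL-2 priming and by 0.59 ± 0.14 and 0.52 ± 0.14 from IL-2 to IL-12. Nsdhl, which acts with Msmo1, rose by 1.18 ± 0.24 with IL-2 priming. Between the cytokines its log2 fold change was 0.70 ± 0.24 (limma adjusted p = 0.0674), 1.03 without IL-2 replicate 1 and 0.38 without IL-2 replicate 2.

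Ebp was the exception to this order, and Dhcr7 was the 1 enzyme of the 11 whose step from naive to IL-2 cells did not pass. Ebp (probe set 10603485), the sterol isomerase, read 9.03 and 9.34 in naive, 10.21 and 10.06 in IL-2 and 10.27 and 10.16 in IL-12 cells. Both primed groups lay above naive cells and overlapped each other, with a log2 fold change of 0.08 between them (95% interval -0.22 to 0.37, limma adjusted p = 0.711). Dhcr7 (probe set 10559312), which performs the last reduction to cholesterol, read 8.50 and 9.07 in naive, 9.34 and 9.17 in IL-2 and 10.40 and 10.05 in IL-12 cells. Its log2 fold change was 0.47 ± 0.19 for IL-2 against naive (limma adjusted p = 0.0775) and 0.97 ± 0.19 for IL-12 against IL-2 (limma adjusted p = 0.00922). With 1 array left out the first of these ran from 0.18 to 0.75. In IL-12 against naive cells all 11 enzymes rose (31.2% of all tested genes), from 2.04-fold for Ebp to 7.69-fold for Cyp51.

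**Figure D2:**
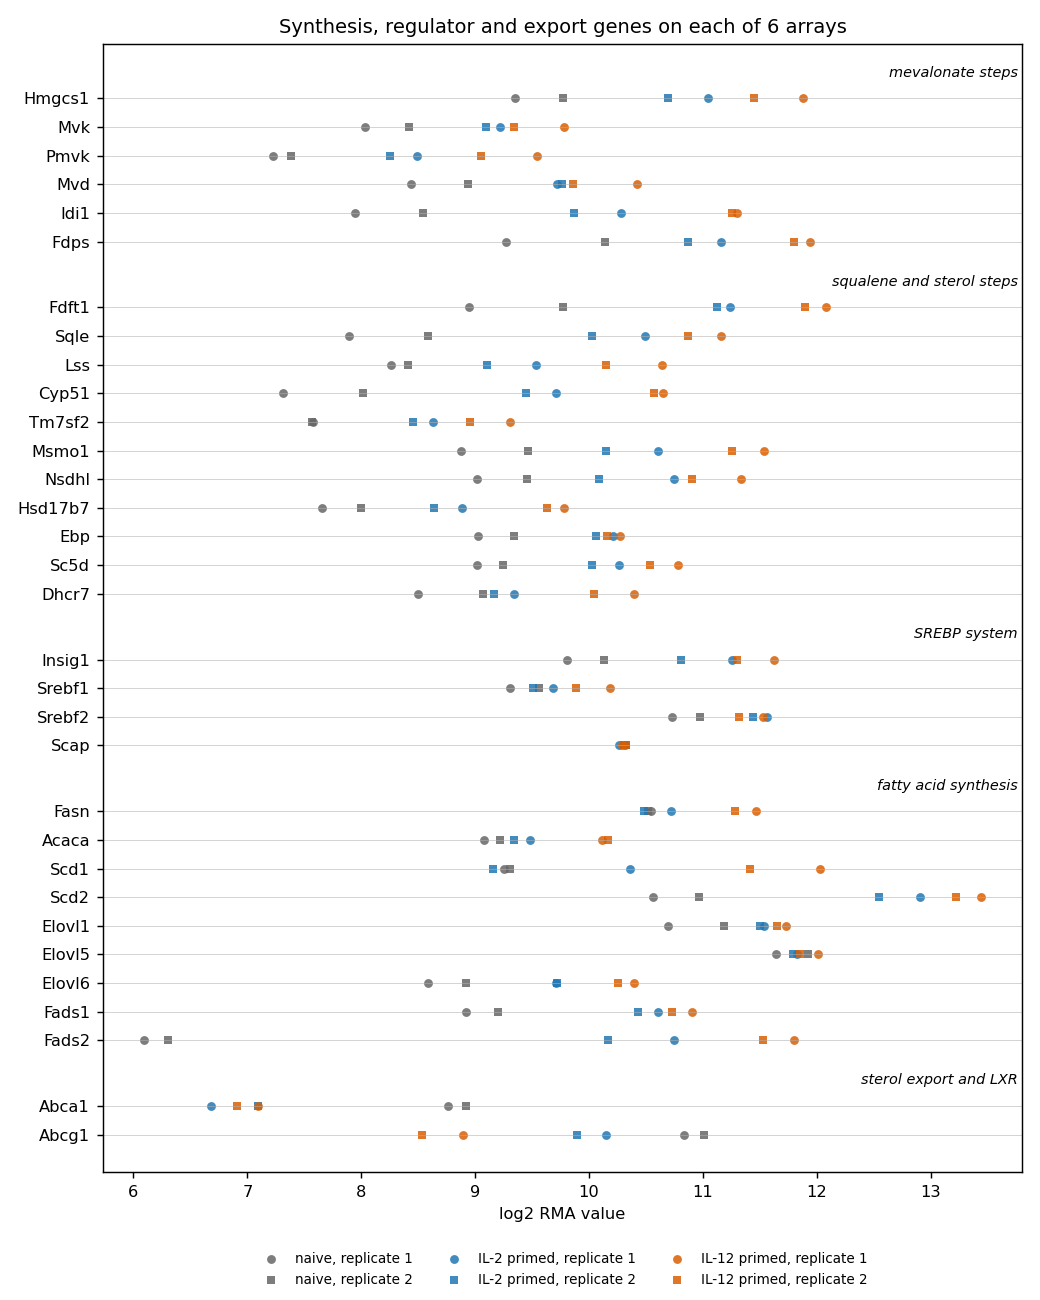
Log2 RMA value (horizontal axis) of each of 32 genes (rows, by role) on each of the 6 arrays, with colour for the group and shape for the replicate. Values of different rows come from different probe sets and are not comparable as levels. The sterol enzymes run from naive through IL-2 to IL-12 cells, Scap has all arrays between 10.26 and 10.33, and Abcg1 runs the other way.

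Counted over the whole list, 23 of the 32 genes had naive below IL-2 below IL-12 cells with no overlap of neighbouring groups, against 17.0% of all tested genes. They included 16 of the 17 mevalonate and sterol enzymes, Insig1 and 6 of the 9 fatty acid genes. In the reverse order, held by 15.0% of all tested genes, stood 1 gene, Abcg1. Both steps passed the test upward in 14 of the 32 genes, against 4.02% of all tested genes.

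The 4 genes of the SREBP system had a median log2 fold change of 0.41 with IL-2 priming and 0.23 between the cytokines, against 1.07 and 0.81 for the 17 enzymes. Srebf2 (probe set 10425695), which encodes SREBP-2, read 10.73 and 10.97 in naive, 11.56 and 11.44 in IL-2 and 11.53 and 11.32 in IL-12 cells. It rose 1.57-fold with IL-2 priming, and the primed groups overlapped (log2 fold change -0.08, 95% interval -0.37 to 0.21). Scap read between 10.26 and 10.33 on all 6 arrays, and its log2 fold change between the cytokines was 0.02 (95% interval -0.20 to 0.25). Srebf1 (probe set 10386473), which encodes SREBP-1, read 9.30 and 9.56 in naive, 9.69 and 9.51 in IL-2 and 10.18 and 9.89 in IL-12 cells. Naive and IL-2 arrays overlapped, and the IL-12 arrays lay above both. It was 1.52-fold higher in IL-12 than in naive cells (limma adjusted p = 0.00572), and leaving out IL-12 replicate 1 ended that call. Its difference of 0.43 ± 0.14 from IL-2 cells did not pass (limma adjusted p = 0.0597), though it did with the naive arrays left out (0.0336). With 1 array left out that difference ran from 0.29 to 0.58. Insig1 (probe set 10520362), itself a transcriptional target of SREBP, read 9.81 and 10.13 in naive, 11.26 and 10.81 in IL-2 and 11.62 and 11.30 in IL-12 cells. It rose by 1.06 ± 0.18 with IL-2 priming, and between the cytokines its log2 fold change was 0.43 with a 95% interval of 0.01 to 0.84 (limma adjusted p = 0.131).

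Within fatty acid synthesis, 5 of 9 genes rose with IL-2 priming and 6 of 9 from IL-2 to IL-12 cells (25.8% and 9.82% of all tested genes). All but Elovl5 rose in IL-12 against naive cells (31.2% of all tested genes). Fasn (probe set 10393970), fatty acid synthase, read 10.54 and 10.51 in naive, 10.72 and 10.48 in IL-2 and 11.47 and 11.29 in IL-12 cells. Naive and IL-2 arrays overlapped (log2 fold change 0.07, 95% interval -0.20 to 0.35), and both IL-12 arrays lay above them (0.77 ± 0.12 against IL-2, limma adjusted p = 0.003). Acaca (probe set 10394538), the acetyl-CoA carboxylase that makes malonyl-CoA for Fasn, read 9.08 and 9.22 in naive, 9.48 and 9.34 in IL-2 and 10.11 and 10.17 in IL-12 cells. Its log2 fold change was 0.26 ± 0.11 for IL-2 against naive (limma adjusted p = 0.0809). It was 0.33 without naive replicate 2 and as low as 0.19 with another array left out. For IL-12 against IL-2 the log2 fold change was 0.73 ± 0.11 (limma adjusted p = 0.00231). A second probe set of Acaca gave 0.35 and 0.79 for the 2 comparisons, and the first of these passed when that probe set was used (limma adjusted p = 0.0364).

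Of the 32 genes, Fads2 had the largest measured rise against naive cells in both primed groups. Fads2 (probe set 10465895), the delta-6 desaturase of polyunsaturated fatty acids, read 6.10 and 6.30 in naive, 10.75 and 10.17 in IL-2 and 11.80 and 11.53 in IL-12 cells. The naive values lay below the filter value, 6.83 (the median of all values on the arrays), where background can make up much of a reading, and the gene passed the filter through the primed arrays. Set against 6.83 in place of the naive values, Fads2 was at least 12.3-fold higher in IL-2 and at least 28.5-fold higher in IL-12 cells. The measured log2 fold changes were 4.26 ± 0.19 (limma adjusted p = 4.34e-07) and 5.46 ± 0.19. Between the cytokines it rose by 1.20 ± 0.19 (limma adjusted p = 0.00307). Fads1, the delta-5 desaturase that acts after it, rose by 1.45 ± 0.13 with IL-2 priming and had a log2 fold change of 0.30 ± 0.13 between the cytokines (95% interval 0.00 to 0.60, limma adjusted p = 0.138).

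The stearoyl-CoA desaturase genes Scd1 and Scd2, which make monounsaturated fatty acids and are close paralogs, both rose from IL-2 to IL-12 cells, while with IL-2 priming Scd2 rose and Scd1 did not pass. The difference between the genes was not tested. Scd1 (probe set 10467979) read 9.26 and 9.31 in naive, 10.36 and 9.16 in IL-2 and 12.03 and 11.41 in IL-12 cells. The IL-2 arrays differed by 1.20 and straddled the naive arrays, while both IL-12 arrays lay above all others. Scd1 was 3.90-fold higher in IL-12 than in IL-2 cells (log2 fold change 1.96 ± 0.34, limma adjusted p = 0.00496), rank 45 among the rises of all tested genes. Its log2 fold change of 0.47 ± 0.34 for IL-2 against naive (limma adjusted p = 0.286) was 1.07 without IL-2 replicate 2 (0.0126) and -0.13 without IL-2 replicate 1 (0.732). Scd2 (probe set 10463355) read 10.56 and 10.97 in naive, 12.91 and 12.55 in IL-2 and 13.44 and 13.22 in IL-12 cells. Its rise with IL-2 priming was 3.89-fold, and the step from IL-2 to IL-12 was 1.52-fold (limma adjusted p = 0.0367). How far each probe set reads the other paralog is not known from these files.

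Of the elongases, Elovl6, which extends palmitate to stearate, rose by 0.96 ± 0.13 with IL-2 priming and by 0.61 ± 0.13 from IL-2 to IL-12. Elovl1, which extends saturated chains to very long ones, read 10.70 and 11.19 in naive, 11.53 and 11.50 in IL-2 and 11.73 and 11.65 in IL-12 cells. It rose by 0.58 ± 0.15 with IL-2 priming (limma adjusted p = 0.0147), and leaving out IL-2 replicate 1 or 2 ended that call (0.0822 and 0.0658). Elovl5, which extends polyunsaturated chains, read between 11.64 and 12.01 on all arrays and passed in no comparison, with a log2 fold change of 0.15 for IL-12 against naive (95% interval -0.13 to 0.43).

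The exporters moved opposite to the enzymes. Abcg1 (probe set 10443730), which exports cholesterol to lipoproteins, read 10.83 and 11.01 in naive, 10.15 and 9.90 in IL-2 and 8.90 and 8.53 in IL-12 cells. The 3 groups did not overlap. Abcg1 fell 1.86-fold with IL-2 priming (limma adjusted p = 0.00143) and 2.48-fold from IL-2 to IL-12 cells (limma adjusted p = 0.000605), a total of 4.63-fold. Abca1 (probe set 10512949), which loads lipid-poor apolipoproteins, read 8.76 and 8.92 in naive, 6.68 and 7.10 in IL-2 and 7.09 and 6.91 in IL-12 cells. It fell 3.87-fold with IL-2 priming (limma adjusted p = 1.44e-05), and the primed groups overlapped (log2 fold change 0.11, 95% interval -0.23 to 0.46). The primed values lay around the filter value of 6.83, which limits both the size of the fall and what could be seen between the cytokines. Macrophages also express both exporters. Of 9 tested myeloid markers 8 fell in IL-2 and 7 in IL-12 against naive cells (19.9% and 26.7% of all tested genes). The part of such cells in the falls against naive was not tested. In both primed groups 6 of the 9 (Lyz2, Csf1r, Adgre1, Mpeg1, C1qa and C1qb) had means below 6.83, where a further fall could not be seen. These 6 passed the filter through the naive arrays alone, so their falls against naive cells were in part fixed by the filter. From IL-2 to IL-12 cells, Itgam and Mpeg1 rose, Itgam from IL-2 values that also lay below 6.83. The part of myeloid cells in the fall of Abcg1 at that step was not tested.

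**Figure D3:**
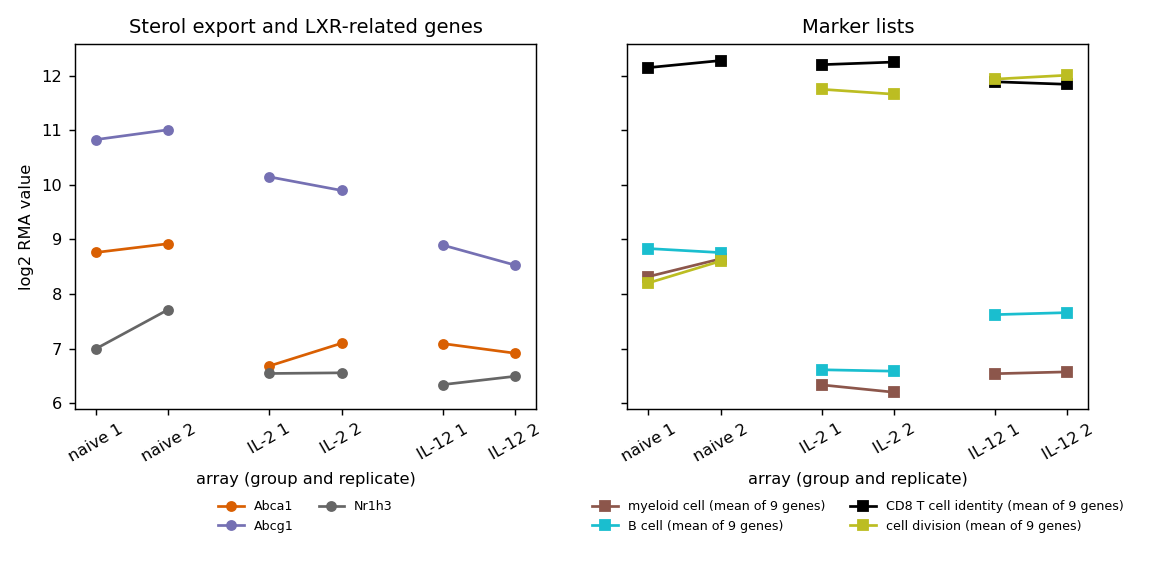
Left, log2 RMA values of the exporter genes Abca1 and Abcg1 and of Nr1h3 on each array (horizontal axis, lines join the 2 arrays of a group). Right, the mean log2 value of 9 genes for each of 4 marker lists on the same arrays. Abcg1 drops at each step, while the myeloid mean drops from naive to primed arrays and lies between 6.20 and 6.57 in both primed groups.

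Genes of the same pathways outside the list were read from a second list of 48, of which 38 had a probe set of their own and 33 were tested. Between the cytokines 9 of the 33 rose with IL-12 and 3 fell (9.82% and 11.0% of all tested genes), with a median log2 fold change of 0.24. With IL-2 priming 11 rose and 8 fell (25.8% and 19.9% of all tested genes), with a median of 0.03, shares near those of all genes. Dgat1, which makes triglyceride, had the largest rise between the cytokines, at 1.97 ± 0.16 on the log2 scale (limma adjusted p = 0.00011), and a log2 fold change of 0.38 ± 0.16 for IL-2 against naive. It read 8.41 and 8.58 in naive, 8.90 and 8.84 in IL-2 and 11.10 and 10.59 in IL-12 cells. Fabp5, a fatty acid binding protein, rose at both steps, by 1.88 ± 0.14 and 1.34 ± 0.14. Stard4, a cholesterol transfer protein and SREBP target, rose by 1.66 ± 0.20 with IL-2 priming and had a log2 fold change of 0.27 ± 0.20 between the cytokines. Acly, which supplies cytosolic acetyl-CoA, rose by 0.41 ± 0.12 in IL-12 against IL-2 cells (limma adjusted p = 0.0399). Leaving out any 1 of the 4 primed arrays ended that call. So did testing with no filter (0.053), quantile normalization (0.0595) and median centring (0.0717). Insig2 passed in no comparison, with a log2 fold change of -0.08 between the cytokines (95% interval -0.36 to 0.20). Nr1h3, which encodes LXR alpha, read 6.997 and 7.71 in naive, 6.54 and 6.55 in IL-2 and 6.34 and 6.49 in IL-12 cells. The primed values lay below the filter value of 6.83, and the gene passed the filter through the naive arrays alone. The naive mean was 1.44-fold above that value, and naive replicate 1 lay close to it. The measured log2 fold change with IL-2 priming was -0.81 (limma adjusted p = 0.0105). It was -0.80 without IL-2 replicate 1 and -0.81 without IL-2 replicate 2, and leaving out either array ended that call.

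The 3 falls in that list from IL-2 to IL-12 cells are named after their values were seen. They were those of Npc1, which moves cholesterol out of lysosomes, Elovl7, an elongase, and Acss2, which makes acetyl-CoA from acetate. Npc1 read 10.38 and 10.43 in naive, 10.48 and 10.38 in IL-2 and 9.71 and 9.63 in IL-12 cells. The IL-12 arrays alone were low (log2 fold change -0.76 ± 0.10 against IL-2, limma adjusted p = 0.00136). Elovl7 fell by 0.78 and Acss2 by 0.57 on the log2 scale. Leaving out either IL-2 array or IL-12 replicate 2 ended the call of Acss2, as did quantile normalization (limma adjusted p = 0.0515).

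The arrays of a group differed in these genes in 1 direction. Replicate 1 read higher in 28 of the 32 genes in IL-2 cells and in 30 of 32 in IL-12 cells, against 48.5% and 45.4% of all tested genes. In naive cells replicate 2 read higher in 30 of 32, and replicate 1 was higher in 39.1% of all tested genes. The median absolute difference between the arrays of a group was 0.32 for the listed genes in naive, 0.24 in IL-2 and 0.23 in IL-12 cells, against 0.17, 0.09 and 0.10 over all tested genes. The mean of the 17 mevalonate and sterol enzymes was 8.37 and 8.83 on the naive arrays, 9.97 and 9.70 on the IL-2 arrays and 10.75 and 10.46 on the IL-12 arrays. The gap between the nearest arrays of the primed groups was thus larger than the gap within either. Because the genes shift together between arrays, their counts are not counts of independent events.

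**Figure D4:**
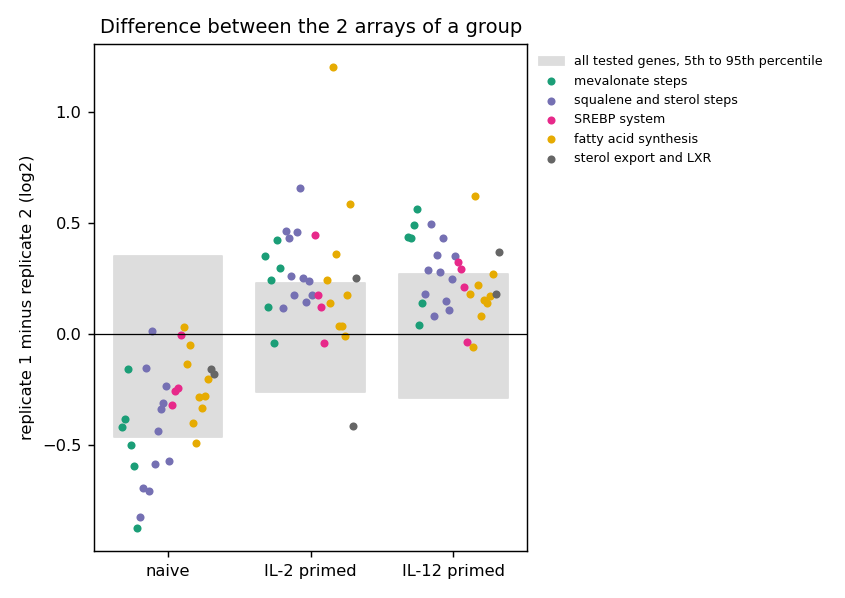
Replicate 1 minus replicate 2 on the log2 scale (vertical axis) for each of 32 genes, coloured by role, in each group (horizontal axis), with the 5th to 95th percentile of all tested genes as a grey band. The points lie mostly below 0 in naive cells and above 0 in both primed groups, and Scd1 stands out in IL-2 cells at 1.20.

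Leaving out 1 array ended many calls between the cytokines, among the listed genes as over all tested genes. Over all genes the 2321 calls became 737 without IL-2 replicate 2, 1219 without IL-12 replicate 1, 954 without IL-2 replicate 1 and 1031 without IL-12 replicate 2. Of the 32 listed genes, without IL-2 replicate 2, 6 rose and 1 fell, and without IL-12 replicate 1, 8 rose and 1 fell. Leaving out IL-2 replicate 1 gave 13 rises and 1 fall, and leaving out IL-12 replicate 2 gave 14 and 1. The calls that held without each array in turn were 7, those of Idi1, Hsd17b7, Fasn, Acaca, Scd1, Fads2 and Abcg1. The 12 others all failed with IL-2 replicate 2 left out (limma adjusted p from 0.0564 for Lss to 0.258 for Scd2), namely Hmgcs1, Pmvk, Fdps, Fdft1, Lss, Cyp51, Tm7sf2, Msmo1, Sc5d, Dhcr7, Scd2 and Elovl6. Leaving out IL-12 replicate 1 ended 10 of them, all but Pmvk and Lss (0.0527 to 0.185). Leaving out IL-2 replicate 1 ended 6 (0.0529 to 0.122), and leaving out IL-12 replicate 2 ended 4 (0.0559 to 0.115). Every 1 of the 12 kept its direction in these fits. Against naive cells 24 of 25 calls held for IL-2 and 29 of 30 for IL-12 without each array in turn.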

How the data were processed

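Each of 6 samples of total RNA was read on 1 Affymetrix array, per the labels' protocols. The authors deposited log2 values of 35556 probe sets. RMA, named in the submitters' processing notes, corrects background, aligns arrays by quantiles and summarises probes, so a shift common to most genes would be removed. Its version is not stated, and a genome build was not given. Of the probe sets, 21789 carried 1 gene symbol in the platform annotation, 1621 carried several and 12146 were not listed. The last 2 kinds were left out. Genes entered the test with at least 2 of 6 arrays above 6.83, the 50th percentile of all values. All arrays were fitted with limma 3.58.1 in R 4.3.3 (3 group means, no block, 3 residual and 5.62 prior degrees of freedom), two-sided, with Benjamini-Hochberg adjustment over 11147 genes and a threshold of 0.05. Intervals are 95% intervals of the fit, unadjusted. The number of arrays limits the precision.

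Members and lists were chosen with earlier results of these data known. All members are accounted for. Of the second list, genes were named that passed with a log2 fold change of at least 1 between the cytokines, or that belonged to a fixed set, of which 4 had a probe set. The 3 that fell between the cytokines lie outside this rule and were named after their values were seen. Promoter sequences are from RefSeq (GRCm38.p6). Alternatives were 2 other filters, 2 other rules for probe sets, median centring, quantile normalization, a robust eBayes fit with a trend, the compared groups alone, a replicate block and leaving out each array.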

Additional observations from a re-analysis of the deposited data

How the results depend on the processing

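Over 15 alternatives, the 96 log2 fold changes of the listed genes gave 1437 values, of which 1378 kept direction and side of the threshold, 37 lost a call, 14 gained one and 8 turned sign. Abca1 gave none with the filter at the 75th percentile. The alternatives were not all separate checks. For each comparison, leaving out either array of the third group gave the same fit as the compared groups alone. The other filters, the robust fit, the replicate block and the compared groups alone could not change a log2 fold change, only its adjusted p. The count of listed genes called between IL-12 and IL-2 cells, 19, ran from 7 to 21 when 1 array was left out. That against naive cells ran from 24 to 27 for IL-2 and from 29 to 30 for IL-12. Over all genes the count between the cytokines, 2321, was 3533 in the compared groups alone and ran from 737 to 3533 with 1 array left out, and that between IL-2 and naive cells, 5095, ran from 3341 to 5786.

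No value that turned sign was called in either setting. Scap was -0.038 between the cytokines with median centring. Elovl5 was -0.037 and Npc1 -0.051 for IL-2 against naive with quantile normalization. With 1 array left out, log2 fold changes between the cytokines ran from -0.185 to 0.026 for Srebf2, -0.10 to 0.321 for Abca1 and -0.177 to 0.016 for Insig2. For IL-2 against naive they ran from -0.046 to 0.195 for Fasn, -0.13 to 1.07 for Scd1, -0.11 to 0.173 for Elovl5, -0.11 to 0.061 for Acly and -0.029 to 0.072 for Npc1. For IL-12 against naive they ran from -0.033 to 0.0071 for Scap. The cause was not tested.

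Replicate numbers pair no samples by the labels. Deviations of equal numbers correlated at 0.02 (naive and IL-2), -0.02 (naive and IL-12) and 0.15 (IL-2 and IL-12). With the replicate block 21, 25 and 30 listed genes were called for IL-12 against IL-2, IL-2 against naive and IL-12 against naive, and 2414, 5128 and 6471 of all genes. Among the listed genes the block added Sqle (limma adjusted p = 0.049) and Nsdhl (0.0495) between the cytokines.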
